A study of Mus musculus with 6 samples.

Results

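The p53 targets and CDK inhibitors are 10 mouse genes that carry or answer the p53 and INK4/ARF arrest programme: Trp53, Mdm2, Cdkn1a, Cdkn2a, Cdkn2b, Ccng1, Perp, Sesn1, Sesn2 and Bbc3. They were read by every non-control probe whose RefSeq accession belongs to one of them, which gave 13 of 39429 probes and 10 of 20656 named genes. RNA was hybridised to 6 single-colour arrays, 1 array for each group. Cells treated to become neurons were profiled at 1, 3, 5 and 7 dpi; the labels call them induced by Tet3, a dioxygenase that oxidises 5-methylcytosine. The other groups were primary neurons and the starting cells, labelled as mouse embryonic fibroblasts (MEF), a primary culture of mixed connective tissue cells. All 6 carry the age E13.5, and the fibroblasts came from ICR embryos. The treated fibroblasts received adenoviral supernatants with polybrene on successive days. Part of their medium was then changed for neuronal medium with 20 µM forskolin, an activator of adenylyl cyclase, on days 3 and 5 after the second infection. No group used here is labelled as given a virus without Tet3, so virus, Tet3, time in culture and, at the later times, medium cannot be told apart. By its label the 1 dpi array comes before the days of those medium changes. With 1 array per group no difference between groups was tested, and every difference describes a pair of arrays.

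p53, encoded by Trp53, is a transcription factor held at a low protein level by the ubiquitin ligase Mdm2, which is itself a p53 target and so closes a feedback loop. DNA damage, oncogene activity and virus infection are known to stabilise p53, which then induces genes of cell cycle arrest such as Cdkn1a and of apoptosis such as Bbc3. Cdkn2a encodes ARF, which binds Mdm2, and the CDK inhibitor p16INK4a from alternative first exons, and the neighbouring gene Cdkn2b encodes the CDK inhibitor p15INK4b. In cultured fibroblasts this programme is known for limiting proliferation over passages and for lowering the yield of reprogramming.

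Promoter sequence was taken from RefSeq (GRCm38.p6) for 14 start sites of 9 of the genes; Perp was not matched. The 250 bases before each start were searched on both strands for the p53 response element, a 20-letter motif of adjacent repeats with no spacer, and for the GC box GGGCGG. In the p53 motif the fixed C and G letters all had to match, so a letter off lies only at another position. Sites with a changed fixed letter were not counted, here or over all genes. The 3 windows below are shown because they hold the only elements found among the 14, or because they show an INK4/ARF start in which none was found. In the first pair, capitals mark the p53 element, which was 1 letter off the motif in each. In the third, capitals mark GC boxes.
Cdkn1a, upstream start, chr17:29090729-29090978, plus strand: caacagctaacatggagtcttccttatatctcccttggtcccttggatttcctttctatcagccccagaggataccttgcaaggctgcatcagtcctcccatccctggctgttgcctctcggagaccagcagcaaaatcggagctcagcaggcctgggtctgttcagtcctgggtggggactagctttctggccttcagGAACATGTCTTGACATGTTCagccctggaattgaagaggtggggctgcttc
Ccng1, chr11:40755287-40755536, minus strand: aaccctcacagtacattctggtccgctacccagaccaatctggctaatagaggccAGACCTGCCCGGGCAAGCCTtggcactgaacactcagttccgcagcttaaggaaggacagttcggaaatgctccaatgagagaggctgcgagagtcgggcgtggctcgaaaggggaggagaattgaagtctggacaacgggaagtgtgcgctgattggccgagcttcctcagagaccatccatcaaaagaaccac
Cdkn2a, upstream start, chr4:89294620-89294869, minus strand: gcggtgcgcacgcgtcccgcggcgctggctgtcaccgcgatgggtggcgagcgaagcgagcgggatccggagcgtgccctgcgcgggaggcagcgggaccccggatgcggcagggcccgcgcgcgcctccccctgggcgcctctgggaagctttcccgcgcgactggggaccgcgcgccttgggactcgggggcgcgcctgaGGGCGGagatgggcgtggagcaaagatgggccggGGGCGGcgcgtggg
The Cdkn1a element ended 31 bases before its start and the Ccng1 element 175 bases before. An element at most 1 letter off was present in 19 of 32851 promoter windows of all genes (0.0578%), and one at most 2 letters off in 89 (0.271%). GC boxes were present in 9 of the 14 windows and in 32.7% of all windows. A match is a description of these letters, and no match says only that the letters are not in this window.

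Levels are log2 signals relative to the 75th percentile of the same array, so 0 is the signal that 75% of the probes lie below. They compare arrays for one probe and not one gene with another. All 13 probes were well above background on all 6 arrays, except a dim Cdkn2a probe on the neuron array. Over all probes, 72.9% to 86.1% were well above background. The error model of the scanner software gave a 95% interval of about ±0.40 for a log2 difference of one of the 10 genes, which covers the array and not the spread between cultures. MEF and 1 dpi were read in one scan and the other 4 arrays in another. Scan and group therefore cannot be told apart for 3, 5 and 7 dpi or neurons over MEF. The brightest Tet3 probe was 2.56-fold, 3.89-fold and 6.94-fold higher at 1, 3 and 5 dpi than in MEF. On the array labelled 7 dpi it stood 1.23-fold above MEF. Another Tet3 probe was too dim in MEF to be well above background, and its signal at 1, 3 and 5 dpi was higher by at least 24.3-fold, 44.1-fold and 116.3-fold. That probe was likewise too dim on the array labelled 7 dpi. The remaining probe, also dim, was 1.37-fold lower at 1 dpi, 1.24-fold and 1.28-fold higher at 3 and 5 dpi, and 1.33-fold above MEF on the array labelled 7 dpi. The Tet3 signal of that array thus did not bear out its label as Tet3-induced cells, and a wrong label and a loss of the introduced Tet3 by then cannot be told apart here. Each 7 dpi value below carries this doubt. Markers moved as well. The summed signal of 11 macrophage markers, in multiples of the 75th percentile, was 318.8 in MEF, 54.2 at 1 dpi, 18.8 at 3 dpi, 3.35 at 5 dpi and 2.63 on the array labelled 7 dpi, and each of the 11 was at least 2-fold lower than in MEF in each comparison with MEF. Neuron markers summed to 3.35 in MEF, 8.30, 14.8 and 10.6 at 1, 3 and 5 dpi and 23.2 on the array labelled 7 dpi, with 114.5 in neurons. Snap25 was the brightest of these 12 markers in MEF and at 1, 3 and 5 dpi, so it weighs most in those sums. From 3 to 5 dpi Snap25 differed by -1.34, while the median difference over the 12 markers was 0.88. Fibroblast markers summed to 536.9 to 714.1 on the Tet3 arrays and 112.9 in neurons, against 581.6 in MEF. The brightest markers weigh most in these sums. At 3 dpi 2 of the 12 were at least 2-fold higher than in MEF and 3 lower, beside 16.3% and 9.83% of all genes. Dcn and Lum were 6.52-fold and 4.58-fold lower there, and S100a4 was 12.6-fold higher. None was lower at 1 or 5 dpi or on the array labelled 7 dpi, beside 6.03%, 8.28% and 6.84%. In neurons 10 were lower than in MEF and 1 was higher, beside 16.1% and 30.3% of all genes. The part of the marked cell types in the differences from MEF was not tested. In RNA from whole cultures, fewer cells of a type and less RNA per cell cannot be told apart.

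The induced cells at 1 dpi already had most of these genes above MEF. At 1 dpi 7 of the 10 genes were at least 2-fold higher than in MEF: Mdm2, Cdkn1a, Cdkn2a, Cdkn2b, Ccng1, Perp and Bbc3. Sesn1 was at least 2-fold lower. Of all 16813 genes with a value, 5.37% were at least 2-fold higher and 6.03% lower in that comparison, which lies within one scan. The median log2 difference was 1.26 over the 10 genes, beside 0.07 over all genes. At 3 dpi 7 genes were higher than in MEF and 1 was lower, beside 16.3% and 9.83% of all genes, and at 5 dpi again 7 and 1, beside 17.9% and 8.28%. The medians were 1.43 at 3 dpi and 1.60 at 5 dpi, with 0.20 over all genes at each time. On the array labelled 7 dpi 6 genes were higher than in MEF and 1 was lower, beside 17% and 6.84% of all genes, with medians of 1.11 and 0.16. Centring each array on its median instead gave 9.93% and 14.5% of all genes at 3 dpi, 9.81% and 14.8% at 5 dpi and 8.80% and 12.2% on the array labelled 7 dpi, where 2 of the 10 genes, Cdkn2a and Cdkn2b, were then at least 2-fold higher. Under it Mdm2 at 1 and 3 dpi, Cdkn2a at 3 dpi and Bbc3 at 5 dpi lay below 2-fold, at 0.77 to 0.99. Trp53 on the array labelled 7 dpi lay below 2-fold after median centring, normexp correction and quantile normalization alike, at 0.65 to 0.98. These 4 comparisons share the MEF array.

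**Figure D1:**
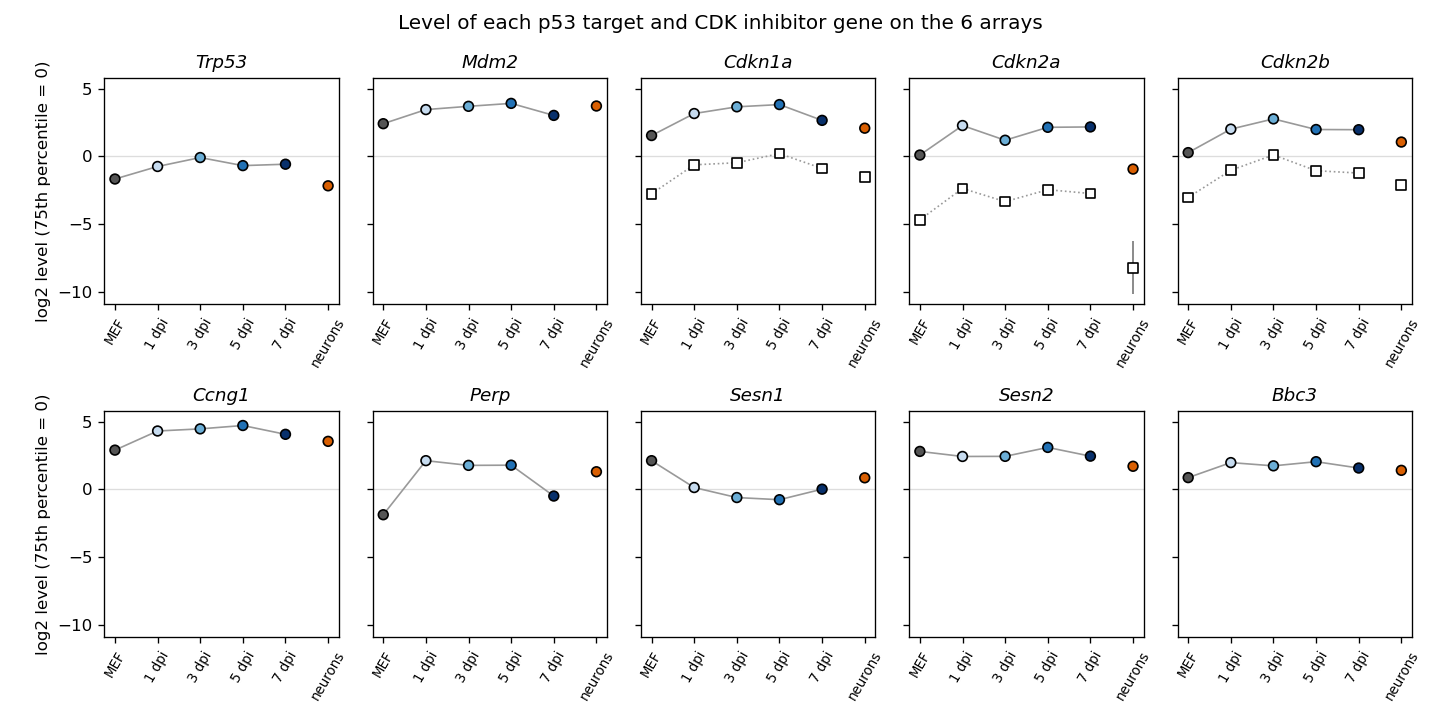
Level of each gene (log2 signal relative to the 75th percentile of the array) in MEF, at 1, 3, 5 and 7 dpi and in neurons. Circles are the brightest probe of a gene, open squares its second probe, and bars the 95% interval of the array error, hidden by the symbol where it is short. The 7 dpi point of Perp lies at -0.49, below the points of 1.77 to 2.12 at 1 to 5 dpi, and the lowest square is the Cdkn2a probe not well above background in neurons.

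**Figure D2:**
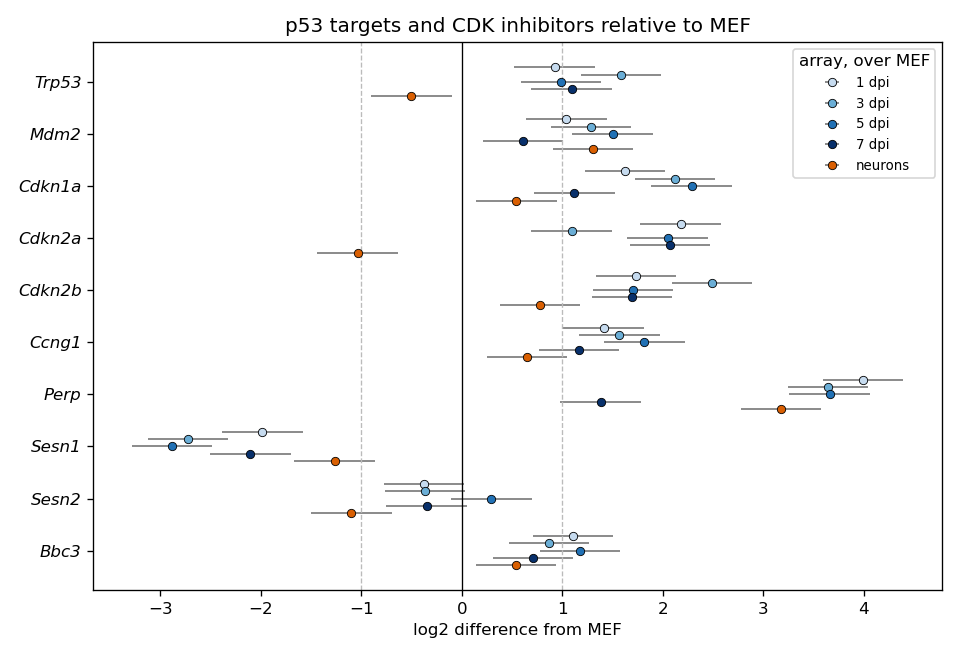
Log2 difference from MEF on the 4 Tet3 arrays and the neuron array, with the 95% interval of the array error. Dashed lines mark 2-fold. Perp reaches 3.99 at 1 dpi, and Sesn1 lies between -2.88 and -1.98 on the 4 Tet3 arrays.

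Trp53 mRNA was higher on each Tet3 array than in MEF and lowest in neurons. Its log2 level was -1.67 in MEF, -0.75 at 1 dpi, -0.09 at 3 dpi, -0.68 at 5 dpi and -0.58 on the array labelled 7 dpi, and -2.17 in neurons. The level at 3 dpi was apart from the others by more than the array error, while those of 1, 5 and 7 dpi lay within it. Relative to MEF the level was 1.90-fold higher at 1 dpi, 3.00-fold at 3 dpi, 1.98-fold at 5 dpi and 2.13-fold on the array labelled 7 dpi. The neurons were 1.42-fold lower than MEF. A p53 protein level was not measured on these arrays, and the p53 response is known to run largely through protein stability.

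Mdm2, the ligase that marks p53 for degradation, was higher in neurons as well as on the Tet3 arrays. It had log2 levels of 2.41 in MEF, 3.45 at 1 dpi, 3.69 at 3 dpi, 3.91 at 5 dpi and 3.02 on the array labelled 7 dpi, and 3.72 in neurons. The levels in neurons, at 3 dpi and at 5 dpi differed from one another by less than the array error, and MEF was lowest. It was 2.06-fold, 2.43-fold and 2.83-fold higher at 1, 3 and 5 dpi than in MEF. The array labelled 7 dpi was 1.53-fold and the neurons were 2.47-fold above MEF. Mdm2 and Trp53 thus lay in opposite order in neurons relative to MEF, with Mdm2 higher and Trp53 lower. The difference of Mdm2 in neurons was 0.50 after median centring and 1.84 after quantile normalization.

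Cdkn1a, which encodes p21, the CDK inhibitor through which p53 arrests the cell cycle, was higher on each Tet3 array than in MEF and highest at 3 and 5 dpi. Its probe is printed 10 times on the array, and these spots had an SD of 0.026 to 0.060 log2 units. The log2 levels were 1.54 in MEF, 3.16 at 1 dpi, 3.66 at 3 dpi, 3.82 at 5 dpi and 2.66 on the array labelled 7 dpi, and 2.08 in neurons. Only the levels at 3 and 5 dpi lay within the array error of each other among neighbours in this order. Relative to MEF it was 3.08-fold higher at 1 dpi, 4.34-fold at 3 dpi, 4.88-fold at 5 dpi and 2.17-fold on the array labelled 7 dpi, and 1.46-fold higher in neurons. A second probe, for another RefSeq transcript of the gene, was dimmer and gave larger differences of 2.14, 2.29 and 2.97 at 1, 3 and 5 dpi, 1.87 on the array labelled 7 dpi and 1.23 in neurons. Both probes had the same order over time. The Cdkn1a element shown above lies before the upstream start, and the probes were not assigned to either start.

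Ccng1, which encodes cyclin G1, a p53 target that binds a phosphatase acting on Mdm2, had the same order over the arrays as Cdkn1a. Its log2 levels were 2.90 in MEF, 4.31 at 1 dpi, 4.46 at 3 dpi, 4.71 at 5 dpi and 4.06 on the array labelled 7 dpi, and 3.54 in neurons. Neighbouring levels from 5 dpi down to 7 dpi each lay within the array error. It was 2.66-fold, 2.97-fold and 3.52-fold higher at 1, 3 and 5 dpi than in MEF, 2.24-fold on the array labelled 7 dpi and 1.57-fold in neurons. Ccng1 and Cdkn1a are the genes whose printed windows hold a p53 element.

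Perp, a p53 target that encodes a membrane protein of desmosomes and has been tied to apoptosis, had the largest difference of the 10 genes at 1, 3 and 5 dpi. The log2 levels were -1.87 in MEF, 2.12 at 1 dpi, 1.77 at 3 dpi, 1.79 at 5 dpi and -0.49 on the array labelled 7 dpi, and 1.30 in neurons. Relative to MEF this was 15.9-fold, 12.5-fold and 12.6-fold higher at 1, 3 and 5 dpi, 2.60-fold on the array labelled 7 dpi and 9.02-fold in neurons. The 3 earlier Tet3 arrays lay together, the neurons below them, then the array labelled 7 dpi, and MEF lowest. Since Perp is also an epithelial gene, epithelial markers were read beside it. The sum of 12 markers, in multiples of the 75th percentile, was 1.84 in MEF, 2.28, 3.57 and 2.24 at 1, 3 and 5 dpi and 1.55 on the array labelled 7 dpi, and highest in neurons at 4.15. Trp63 was the brightest of the 12 on each array and 2.88-fold higher in neurons than in MEF, so it weighs most in the neuron sum. The median log2 level of the 12 was highest at 5 dpi, at -3.19, with -3.90 in neurons and -4.95 in MEF. Markers at least 2-fold higher than in MEF numbered 3, 5 and 4 at 1, 3 and 5 dpi, and 4 each on the array labelled 7 dpi and in neurons, beside 5.37%, 16.3%, 17.9%, 17% and 30.3% of all genes. None was lower on a Tet3 array, and 1, the keratin gene Krt19, was lower in neurons. At 3 dpi the higher markers were the keratin genes Krt18 and Krt19, at 3.99-fold and 6.36-fold, the desmosome gene Dsp at 6.74-fold, and Krt8 and Pkp1 at at least 3.09-fold and 5.53-fold. At 5 dpi Krt8 stood at least 17.8-fold above MEF, where it was too dim to be measured. Dsp was higher than in MEF by 2.00, 2.75 and 2.98 log2 units at 1, 3 and 5 dpi, by 1.98 on the array labelled 7 dpi and by 2.24 in neurons. Epcam and Cdh1, which define epithelial cells, were not well above background on any array. The part of epithelial cells in the Perp difference was not tested.

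Bbc3 encodes PUMA, a BH3-only protein that triggers apoptosis, and had the smallest range over the 6 arrays, 1.18 log2 units. Its levels were 0.87 in MEF, 1.98 at 1 dpi, 1.74 at 3 dpi, 2.04 at 5 dpi and 1.57 on the array labelled 7 dpi, and 1.40 in neurons. All neighbouring levels above MEF lay within the array error. The differences from MEF were 1.11 at 1 dpi, 0.87 at 3 dpi, 1.18 at 5 dpi and 0.71 on the array labelled 7 dpi, so Bbc3 passed 2-fold at 1 and 5 dpi.

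Sesn1 was lower than in MEF on each Tet3 array, while Sesn2 lay within 2-fold of MEF on all 4. Sesn1 was read by 1 probe, for 1 RefSeq transcript, and that probe was not assigned to any of the gene's starts. Sesn1 and Sesn2 encode stress-induced proteins that restrain mTORC1, and both are known as p53 targets, with FoxO factors acting on Sesn1 and ATF4 on Sesn2 as well. Sesn1 had log2 levels of 2.12 in MEF, 0.13 at 1 dpi, -0.60 at 3 dpi, -0.76 at 5 dpi and 0.01 on the array labelled 7 dpi, and 0.85 in neurons. It was 3.95-fold, 6.59-fold and 7.36-fold lower at 1, 3 and 5 dpi than in MEF, 4.29-fold lower on the array labelled 7 dpi and 2.40-fold lower in neurons. Sesn1 was thus highest in MEF and lowest at 5 dpi, where Cdkn1a and Ccng1 were highest. For each of these genes the levels at 3 and 5 dpi lay within the array error of each other. Sesn2 had levels of 2.80 in MEF, 2.43 at 1 dpi, 2.44 at 3 dpi, 3.10 at 5 dpi and 2.45 on the array labelled 7 dpi, and 1.70 in neurons. Its differences from MEF were -0.37, -0.36 and 0.29 at 1, 3 and 5 dpi and -0.35 on the array labelled 7 dpi, each within the array error, and the neurons were 2.14-fold lower than MEF.

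Cdkn2a was higher on each Tet3 array than in MEF and lower in neurons than in MEF. The log2 levels were 0.10 in MEF, 2.28 at 1 dpi, 1.19 at 3 dpi, 2.14 at 5 dpi and 2.17 on the array labelled 7 dpi, and -0.94 in neurons. It stood 4.52-fold, 2.13-fold and 4.13-fold above MEF at 1, 3 and 5 dpi and 4.21-fold on the array labelled 7 dpi, while neurons were 2.05-fold below MEF. A second probe gave differences of 2.32, 1.34 and 2.22 at 1, 3 and 5 dpi and 1.94 on the array labelled 7 dpi. In neurons it was not well above background, at least 3.64-fold below MEF. The dip at 3 dpi was present with both probes, at -1.09 and -0.97 relative to 1 dpi. Both probes carry the same accession, and the sources used here do not say which of the ARF and INK4a transcripts they read.

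Cdkn2b, the neighbour of Cdkn2a and a known TGF-beta target, peaked where Cdkn2a dipped. Its log2 levels were 0.28 in MEF, 2.01 at 1 dpi, 2.77 at 3 dpi, 1.98 at 5 dpi and 1.97 on the array labelled 7 dpi, and 1.06 in neurons. Those of 1, 5 and 7 dpi lay within the array error of one another, 3 dpi was above them, and neurons lay between these and MEF. Relative to MEF it was 3.33-fold, 5.61-fold and 3.26-fold higher at 1, 3 and 5 dpi and 3.23-fold on the array labelled 7 dpi. The second probe gave 4.01-fold, 8.80-fold and 3.92-fold at 1, 3 and 5 dpi and 3.48-fold on the array labelled 7 dpi. From 1 to 3 dpi the genes therefore moved in opposite directions, Cdkn2a by -1.09 and Cdkn2b by 0.75, although those arrays were read in different scans. From 3 to 5 dpi, within one scan, Cdkn2a was higher by 0.95 and Cdkn2b lower by 0.78.

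Between neighbouring times few of the genes passed 2-fold. For 3 over 1 dpi none was higher and Cdkn2a was lower, beside 7.84% and 5.12% of all genes. After quantile normalization the shares of all genes were 3.69% and 6.78%. For 5 over 3 dpi none passed 2-fold in either direction, beside 8.09% and 4.60%, and the median over the 10 genes was 0.19. For 7 over 5 dpi none was higher and 2 were lower, Perp and Cdkn1a, beside 6% and 4.72% of all genes, with a median of -0.56 over the 10 genes and -0.01 over all genes. Perp was 4.85-fold lower on the array labelled 7 dpi than at 5 dpi, Cdkn1a 2.24-fold, Mdm2 1.85-fold, Ccng1 1.57-fold and Bbc3 1.38-fold lower. Cdkn2a, Cdkn2b and Trp53 differed by 0.03, -0.01 and 0.10, within the array error, and Sesn1 was 1.71-fold higher. Both arrays were read in the same scan. The brightest Tet3 probe was 5.64-fold lower on the array labelled 7 dpi than at 5 dpi. The part of that difference, and of the medium change on day 5, in the lower p53 target levels was not tested.

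Against primary neurons, the array labelled 7 dpi was higher for Cdkn2a and Trp53 and lower for Perp. These 3 genes passed 2-fold, 2 higher and 1 lower, beside 13.9% and 19.6% of all genes. Cdkn2a was 8.63-fold higher, Trp53 3.02-fold higher and Perp 3.47-fold lower than in neurons. Cdkn2b was 1.88-fold and Sesn2 1.68-fold higher, and Mdm2 was 1.62-fold and Sesn1 1.79-fold lower. Median centring put 22.4% of all genes higher and 14.7% lower and 4 of the 10 genes at least 2-fold higher. Neurons over MEF had 2 of the genes at least 2-fold higher, Perp and Mdm2, and 3 lower, Sesn1, Sesn2 and Cdkn2a, beside 30.3% and 16.1% of all genes. Median centring gave 16.2% and 37.5% for all genes, and under it Cdkn1a, Cdkn2b, Ccng1 and Bbc3, which lay 0.54 to 0.78 above MEF in neurons, changed sign.

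**Figure D3:**
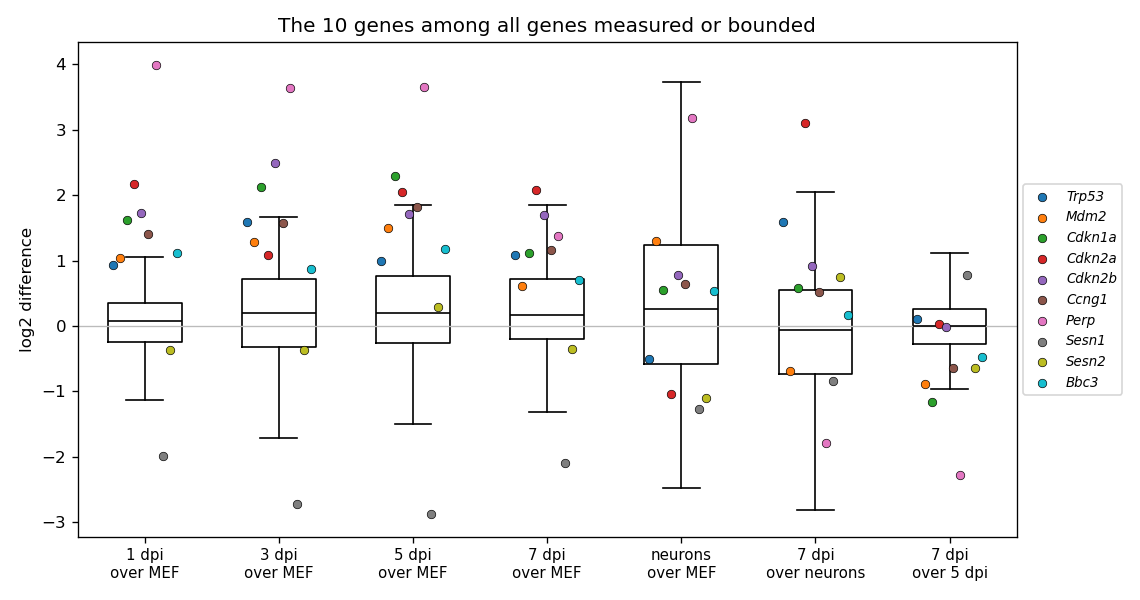
Log2 difference of each of the 10 genes (coloured points) in 7 comparisons, with all genes that had a value as boxes (median and quartiles, whiskers at the 5th and 95th percentile). In the last comparison the Perp point lies at -2.28 and the Cdkn1a point at -1.17, while the Cdkn2a, Cdkn2b and Trp53 points lie near 0.

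Other known p53 targets were read from separate lists. Of 20 further targets in arrest and signalling, 8 were at least 2-fold higher than in MEF at 1 dpi, 11 at 3 dpi, 11 at 5 dpi and 7 on the array labelled 7 dpi, and none was lower. The shares of all genes higher in these comparisons were 5.37%, 16.3%, 17.9% and 17%. The medians were 0.70, 1.19 and 1.47 at 1, 3 and 5 dpi and 0.71 on the array labelled 7 dpi, beside 0.07, 0.20, 0.20 and 0.16 over all genes. Psrc1, which encodes a spindle protein, was higher by 1.97, 2.51, 2.48 and 1.56 in that order, and Rprm, a G2 arrest gene, by 2.26, 2.04, 2.88 and 2.94. Relative to 5 dpi, 6 of the 20 were at least 2-fold lower on the array labelled 7 dpi and none higher, beside 4.72% and 6% of all genes. Among the 6 were the stress cytokine gene Gdf15 at -2.34 and Plk2, a polo-like kinase gene, at -1.38. Rprm, at 0.06, was not among them, and neurons had it 5.74 above MEF.

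The 15 targets of apoptosis differed from MEF in both directions. At least 2-fold higher than in MEF were 6 at 1 dpi, 6 at 3 dpi, 7 at 5 dpi and 5 on the array labelled 7 dpi, while 1, 3, 2 and 2 were lower. Over all genes the shares were 5.37%, 16.3%, 17.9% and 17% higher and 6.03%, 9.83%, 8.28% and 6.84% lower. Pidd1, which encodes the scaffold of the PIDDosome, was higher by 2.02, 2.45, 3.13 and 1.73, and Eda2r, a death receptor gene, by 1.91, 1.80, 2.12 and 1.99. Pmaip1, which encodes the BH3-only protein NOXA, was higher by 1.70, 1.71 and 2.43 at 1, 3 and 5 dpi and by 0.85 on the array labelled 7 dpi. Casp1, the inflammatory caspase gene, differed by -0.96, -2.82, -4.54 and -5.77. Casp1 is strongly expressed in macrophages, whose summed markers were lower on the same arrays, and their part in this difference was not tested. Of the 8 DNA repair targets, 2 were at least 2-fold higher at 1 dpi, 2 at 3 dpi, 1 at 5 dpi and none on the array labelled 7 dpi, and 1 was lower at 3 dpi, Rev3l at -1.06. With 8 genes the counts from 3 dpi on are near the shares of all genes, while at 1 dpi the share higher was 5.37%. Their medians were 0.04, -0.04, 0.22 and 0.42. The translesion polymerase gene Polk was higher by 1.22, 1.37, 1.80 and 0.85.

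Upstream regulators of p53 were read as a list of 16. None was 2-fold higher or lower than in MEF at 1 dpi or on the array labelled 7 dpi, and 1 was higher at 3 and at 5 dpi, beside 16.3% and 17.9% of all genes. The list's medians were 0.13, -0.02, 0.40 and 0.17 over the 4 Tet3 arrays, with 0.07, 0.20, 0.20 and 0.16 over all genes. The higher gene was Mdm4, the partner of Mdm2 that holds back p53 activity, at 0.81, 1.02, 1.98 and 0.84 over the 4 Tet3 arrays. The kinase genes Atm and Chek1 differed by 0.32 and -0.99 at 1 dpi, and by 0.58 and -0.26 at 5 dpi.

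**Figure D4:**
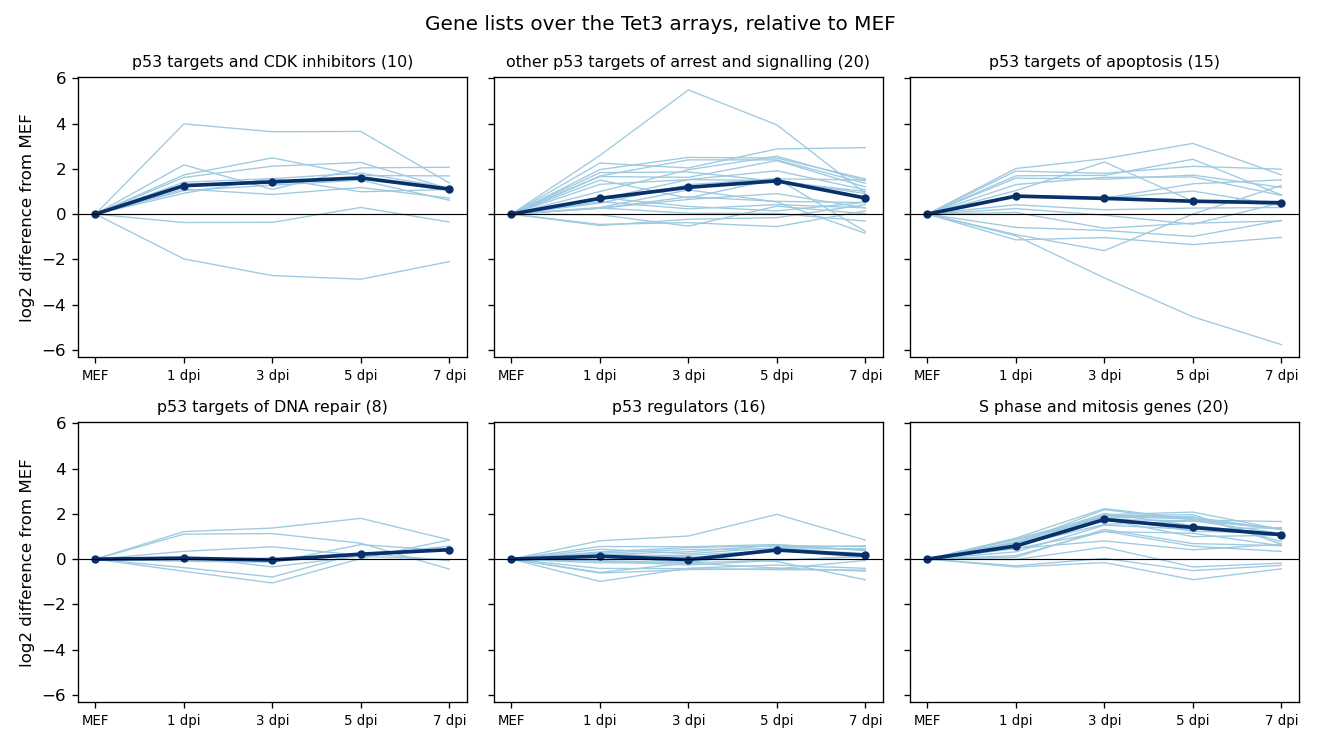
Log2 difference from MEF over the Tet3 arrays for the 10 genes and 5 other lists, with a thin line for each gene, a thick line for the median and the number of genes in each panel title; MEF is 0. The median of the S phase and mitosis list reaches 1.75 at 3 dpi, and the lowest line among the apoptosis targets is Casp1.

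Of 5 other CDK inhibitor genes, none was at least 2-fold higher or lower than in MEF at 1 dpi. Later 1 was higher on each array, Cdkn3, and 2, 1 and 0 were lower at 3 dpi, at 5 dpi and on the array labelled 7 dpi. Over all genes the shares on these arrays were 16.3%, 17.9% and 17% higher and 9.83%, 8.28% and 6.84% lower. With 5 genes, 1 higher is near those shares, and counts from so short a list cannot set it apart from all genes. Cdkn1b, which encodes p27, was lower than in MEF by 0.81, 1.15 and 0.93 log2 units at 1, 3 and 5 dpi and by 0.53 on the array labelled 7 dpi. Cdkn1c, the imprinted gene of p57, differed by -0.24, -3.29, -1.01 and -0.82, and by -5.79 in neurons. Cdkn3, a phosphatase gene that acts on CDKs and is expressed with mitotic genes, was higher by 0.85, 2.06, 1.38 and 1.38, with its highest value at 3 dpi, as Cdkn2b had. The INK4 genes Cdkn2c and Cdkn2d stayed within 2-fold of MEF in all 5 comparisons.

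Known regulators of the INK4/ARF locus were read as a list of 17. At least 2-fold higher than in MEF were 2 at 1 dpi, 2 at 3 dpi, 4 at 5 dpi and 2 on the array labelled 7 dpi, beside 5.37%, 16.3%, 17.9% and 17% of all genes. Lower was 1 gene each time, beside 6.03%, 9.83%, 8.28% and 6.84%. From 3 dpi on these counts are near the shares of all genes, and the list's medians, 0.01, -0.10, 0.06 and -0.07, lay near 0. The lower gene was Cbx7, a polycomb protein gene known to repress the locus, at -1.31, -1.82, -2.01 and -1.69, and at -0.01 in neurons. Ets1, an activator of p16INK4a, was higher by 1.98, 3.28, 2.26 and 1.14, and Tbx2, a repressor of ARF, by 1.04, 1.26 and 1.71 at 1, 3 and 5 dpi and -0.07 on the array labelled 7 dpi.

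Of the G1 cyclins, CDKs and pocket proteins, 14 genes, 3 were at least 2-fold higher than in MEF at 1 dpi, 2 at 3 dpi, 3 at 5 dpi and 3 on the array labelled 7 dpi, while 0, 1, 1 and 0 were lower. At 3, 5 and 7 dpi the counts higher are near the 16.3%, 17.9% and 17% higher over all genes, and at 1 dpi that share was 5.37%. Over all genes 6.03%, 9.83%, 8.28% and 6.84% were lower on the 4 Tet3 arrays. Ccnd1, which encodes cyclin D1, was higher than in MEF by 2.62, 3.04, 3.00 and 2.17 over the 4 Tet3 arrays. Cdk6, a kinase that INK4 proteins bind, was not well above background in MEF and was at least 2.70-fold, 4.16-fold and 3.89-fold higher at 1, 3 and 5 dpi and at least 5.09-fold on the array labelled 7 dpi. Of 20 S phase and mitosis genes, none passed 2-fold at 1 dpi, where 5.37% of all genes were higher and 6.03% lower. At least 2-fold higher than in MEF were 16 at 3 dpi, 13 at 5 dpi and 11 on the array labelled 7 dpi. None of the 20 was lower on these arrays. Their medians were 0.58, 1.75, 1.40 and 1.08, beside 0.07, 0.20, 0.20 and 0.16 over all genes. Cdc20, an activator of the anaphase-promoting complex, was higher by 0.93, 2.23, 1.77 and 1.32, and Top2a by 0.58, 1.96, 2.08 and 1.31. Cdkn1a at 1 dpi was therefore 3.08-fold above MEF on an array where no gene of this list passed 2-fold, and the list and Cdkn1a were both above MEF on the later arrays. Replication genes Pcna and Mcm3 differed by -0.15 and 0.03 at 3 dpi.

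Senescence markers included secreted and chromatin genes. Of the 13 genes, 4 were at least 2-fold higher than in MEF at 1 dpi, 5 at 3 dpi, 6 at 5 dpi and 3 on the array labelled 7 dpi, beside 5.37%, 16.3%, 17.9% and 17% of all genes. Lower were 1, 1, 1 and 2, beside 6.03%, 9.83%, 8.28% and 6.84%. In neurons 10 of the 13 were at least 2-fold lower than in MEF and 1 was higher, beside 16.1% and 30.3% of all genes. Hmga2, a chromatin protein gene, was higher by 1.40, 3.20 and 1.54 at 1, 3 and 5 dpi and differed by 0.14 on the array labelled 7 dpi. Igfbp3, which encodes a secreted binding protein of insulin-like growth factors, differed by 0.09 at 1 dpi, -2.87 at 3 dpi, -1.56 at 5 dpi and 0.11 on the array labelled 7 dpi. Glb1, the gene of the beta-galactosidase stained in senescent cells, lay at -0.34, -0.57, -0.68 and -0.67, within 2-fold of MEF. Lmnb1, the lamin B1 gene whose loss marks senescence, differed by -0.34, 0.22, 0.37 and 0.78 and so was not 2-fold lower on any Tet3 array. The cytokine genes Cxcl1, Cxcl5 and Il6 differed by -0.42, -0.24 and -1.17 at 1 dpi, were higher by 4.82, 4.28 and 4.06 at 5 dpi, and on the array labelled 7 dpi by 3.63, 3.95 and 1.34. Mmp13, a collagenase gene, was higher by 1.52, 1.94 and 1.45 at 1, 3 and 5 dpi and lower by 3.28 on the array labelled 7 dpi. Of 9 BCL2 family genes, 7, 9, 9 and 8 had a value over the 4 Tet3 arrays. Among these, 0, 1, 1 and 1 were at least 2-fold higher than in MEF and 1, 1, 1 and 0 lower. For so few genes these counts are near the shares of all genes given above. Bmf, which encodes a BH3-only protein, differed by -1.36, -3.26, -1.93 and -0.54 over the Tet3 arrays and by -4.52 in neurons. Hrk, another BH3-only gene, was not well above background in MEF. It was at least 9.03-fold higher on the array labelled 7 dpi and at least 91.6-fold higher in neurons.

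The profiles of 4 genes were set against 14832 named genes that were well above background on all arrays, by the root mean square gap of the 5 differences from MEF, which share the MEF array. Closest to Mdm2 were Proser2, Gsap and Parp11, at 0.12, 0.13 and 0.17 log2 units. Cdkn1a was closest to Chrna1, the muscle acetylcholine receptor subunit gene, at 0.23, then Ass1 and Pakap, while Ccng1 lay at 0.34 and Cdkn2b at 0.42. Skeletal muscle markers summed to 3.72 in MEF and to 13.51, 16.7 and 18.1 at 1, 3 and 5 dpi. On the array labelled 7 dpi the sum was 18.8, and in neurons 3.79. Acta1 was the brightest of these 12 markers on each array, so it weighs most in the sums. Relative to 5 dpi, Acta1 differed by -1.21 on the array labelled 7 dpi, while the median difference over the 12 markers was 0.96. The part of muscle cells in the Cdkn1a difference was not tested. Cdkn2a was closest to Avpr1a at 0.31 and to the interferon-induced genes Oasl2 and Ifit3 at 0.34 and 0.38. Oasl2 was higher than in MEF by 1.67, 1.54, 2.21 and 2.01 over the Tet3 arrays and lower by 1.33 in neurons. Perp had no close neighbour: Inka2, Klk8 and Crip2 lay at 0.77, 0.79 and 0.82.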

How the data were processed

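The scans were quantified in Agilent Feature Extraction 11.0.1.1, which the submitters' processing notes name. Per the file headers, each spot has a raw intensity and a processed one from which background was subtracted. The authors' deposited table holds log2 values of the same arrays with the 75th percentile of each at 0; its columns had medians of -3.30 (MEF) to -2.50 (neurons) and differed by at most 0.0053 from the values computed here for the probes of the 10 genes.

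Here, log2 processed signals were averaged over spots without outlier flags, and the 75th percentile of the array was subtracted. That percentile was a signal of 1648 to 2416, and no spot was saturated. A gene is its brightest probe. A difference counts as measured if the probe was well above background on both arrays, and as a lower bound if it was so on 1. The number of arrays limits the precision. Probes were named through RefSeq accessions: 27222 of 39409 matched, for 20656 genes. The 9 comparisons were described with no test between groups; the calling rule was checked on simulated data. Alternatives were normexp background correction with limma 3.58.1 in R 4.3.3 (offset 50, on median signals), quantile normalization, median centring, the authors' table, 2 filters, the mean over probes and a 4-fold threshold.

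The genes and lists were chosen with earlier results of these data known. Named were all 10 genes, in the other lists only genes among the 4 with the largest difference in a comparison (and the same genes elsewhere), and the 3 nearest profiles of 4 genes. A gene that this rule would name is not reported here. Epcam, Cdh1, Glb1 and Lmnb1 were named after their values were seen. Ptprv, Trp53cor1, Bcl2a1a and Cd68 had no matched probe.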

Additional observations from a re-analysis of the deposited data

How the results depend on the processing

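Of 90 differences (10 genes in 9 comparisons), 42 were at least 2-fold, and none of these 42 changed sign under any of the 7 alternatives of scaling, filter or probe. All 42 stayed at least 2-fold with the authors' table, either filter or the mean over probes, 40 with normexp background correction, 40 with quantile normalization and 33 with median centring. Median centring moved the median of all measured genes by -0.30, -0.40 and -0.44 for 3, 5 and 7 dpi over MEF, by -0.80 for neurons over MEF, by 0.36 for 7 dpi over neurons and by -0.23 for 3 over 1 dpi. Under it the medians of the 10 genes were 1.13, 1.20 and 0.666 for 3, 5 and 7 dpi over MEF, -0.262 for neurons over MEF, 0.909 for 7 dpi over neurons and -0.145 for 3 over 1 dpi. Relative to the median of all measured genes they were as before, 1.27, 1.46 and 0.96 for 3, 5 and 7 dpi over MEF and 0.45 for neurons over MEF, since the setting moves every gene of an array alike. Of the 10 genes, 2 were then at least 2-fold higher for 7 dpi over MEF, 1 for neurons over MEF and 4 for 7 dpi over neurons. The shares of all genes under this setting were 8.80%, 16.2% and 22.4%. Quantile normalization gave medians of 0.849 for neurons over MEF and 0.195 for 7 dpi over neurons. In the latter, 2 of the 10 genes were lower, beside 17.6% of all genes under that setting. At 4-fold, 2, 3, 3 and 1 genes were higher for 1, 3, 5 and 7 dpi over MEF, 1 for neurons over MEF and 1 for 7 dpi over neurons. Of the 10 genes, those lower at 4-fold numbered 0 for 1 dpi over MEF, neurons over MEF, 7 dpi over neurons and 3 over 1 dpi. The shares of all genes were 1.33%, 6.77%, 8.86% and 1.3%. For 7 over 5 dpi 1 was lower, beside 0.832%. Over all genes, normexp gave 524 higher against 903 as reported for 1 dpi over MEF, 1270 against 2947 for 3 dpi, 1700 against 3286 for 5 dpi and 1505 against 2981 for 7 dpi. Normexp also gave 417 higher for 3 over 1 dpi against 1381, 508 lower for 5 over 3 dpi against 853, and 636 higher and 472 lower for 7 over 5 dpi against 1074 and 845. Quantile normalization gave 1554, 1640, 1427 and 3338 higher for 3, 5 and 7 dpi and neurons over MEF, against 2947, 3286, 2981 and 5678, and 629 for 3 over 1 dpi. Median centring gave 1773, 1765, 1552 and 2953 higher in the same comparisons with MEF, 2654, 2151 and 6845 lower for 5 dpi, 7 dpi and neurons against 1517, 1197 and 3014, 4074 higher for 7 dpi over neurons against 2577, and 748 for 3 over 1 dpi. At 4-fold, 104 to 2525 genes were higher and 149 to 1640 lower over the 9 comparisons, against 903 to 5678 and 845 to 3633 at 2-fold. With no filter on dim probes, 2448 genes were higher for 3 over 1 dpi, against 1381, and 1457 lower for 7 over 5 dpi, against 845. The cause of these moves was not tested. No paired analysis was possible because each group has 1 array, and no array could be left out of a group. Probes near background limit the low end: the dimmer Cdkn2a probe gave only a bound in neurons.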
